A study of Mus musculus with 8 samples.

Results

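The genes described here are 37 markers of macrophages and other immune cells, taken as a given list of symbols and found in the count tables by their Ensembl identifiers. Counts were found for 36 of the 37 symbols, out of 43629 genes counted in all, and 35 of them were expressed highly enough to be tested, out of 17129 genes tested. Itgb2l, a beta integrin relative, was not tested, with 3, 0, 1 and 6 counts in the control and 6, 2, 4 and 5 counts in the mutant libraries. Lyve1os matched no identifier in the annotation used and was not analysed here. The lower first molars came from embryos at E18.5, with the left and right teeth of an embryo pooled into 1 library. The 4 control embryos (J3, J5, J6 and J7) were Jagged1 fl/fl littermates. The 4 mutant embryos (K14J26, K14J28, K14J29 and K14J30) were Jagged1 fl/fl with K14:cre, so both groups carried the floxed Jagged1 alleles. The paper, however, describes the controls as wild-type littermates. K14:cre is driven by the keratin 14 promoter, which is active in epithelium, so the deletion was directed to the dental epithelium and not to the blood-derived cells whose genes are described here. The study asked how the Notch ligand Jagged1 shapes the molar, and its whole-tooth libraries also hold the RNA of the immune cells that were in the tissue.

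Macrophages enter embryonic tissues early and are maintained by signals through the CSF1 receptor. They engulf dying cells and debris with the help of surface receptors (Mrc1, Cd163, Stab1, the Fc receptors, Trem2), complement C1q and lysosomal proteins (Cd68, Ctss, Lyz2). The transcription factor PU.1, encoded by Spi1, is needed for the macrophage and neutrophil lineages, while S100a8 and S100a9 encode the subunits of calprotectin, which is abundant in neutrophils and monocytes and is also made by some epithelia. Around the developing tooth, cells of the same lineage fuse into osteoclasts, which resorb the bone of the crypt and share many genes with macrophages.

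The libraries held 17327224 to 28613574 counts in the control and 24692128 to 29792467 counts in the mutant group, so that 3 counts correspond to between 0.0998 and 0.166 CPM (counts brought to a common sequencing depth with TMM factors). Jag1 itself, the deleted gene, had 95.2, 103, 104 and 99.8 CPM in the control and 34, 38.9, 45.9 and 57.1 CPM in the mutant libraries (log2 fold change of mutant over control, called log2 change below, -1.19, standard error (SE) 0.14, adjusted p = 0.00517). This and every adjusted p below come from the quasi-likelihood test in edgeR with the Benjamini-Hochberg method over all tested genes, unless another tool is named. Some libraries stood apart for the genes described here. K14J28 had the highest level of all 11 genes of an osteoclast list, and J7 the highest level of the mast cell proteases Cpa3, Cma1, Tpsb2 and Mcpt4. J6 and J7 also held skeletal muscle transcripts, with 404 and 201 CPM over 8 genes against 6.44 to 20.4 CPM in the other libraries. K14J26 held 114298 CPM over 5 enamel genes, against 557 to 3252 CPM in the controls and 3500, 25803 and 9637 CPM in K14J28, K14J29 and K14J30. In bulk tissue, fewer cells of a type and less RNA per cell cannot be told apart.

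The pan-leukocyte and macrophage markers were present in every library, at low levels. Per kilobase of exon, the members with the highest mean over the 8 libraries were Lyz2 (20.1 CPM per kilobase), Tyrobp (19.7), Cd68 (15.3), C1qb (14.2) and S100a9 (13.1), while Cd163 (0.165) lay near the bottom and Itgb2l (0.032) was lowest. Of the T cell markers, Cd3e had at most 2 counts, Cd3d at most 1 and Cd3g at most 4 in any library. The granulocyte marker Ly6g had at most 2 counts, and the mast cell receptor gene Fcer1a had 1 count in K14J30 and 0 in the other 7 libraries. Other lymphocyte genes had some counts: Trac, of the T cell receptor, had 17 to 28, Cd4, which macrophages can also express, 14 to 35, Cd79b, of the B cell receptor, 21 to 54 and Ighm, the IgM heavy chain, 13 to 77 counts per library. Per kilobase, Trac (0.945) and Ighm were above the member Cd163 (0.165).

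Of the 35 tested members, 3 rose in the mutant molars at an adjusted p under 0.05 and 0 fell. The 3 are 8.57% of the tested members, against 16.1% of all tested genes. The background for a rise alone was 9.52% of all tested genes, and for a fall 6.61%. At an unadjusted p of at most 0.05, 7 members were higher and 1, F13a1, was lower, against 19.1% and 15.7% of all tested genes. DESeq2 called 1 member lower, again F13a1, and limma-voom called 0 lower. The study's own criteria combine an unadjusted p up to 0.05 with a fold change of at least 0.5. That fold change was read here as a log2 ratio of 0.5 or more in size. By this reading 8 members met the criteria (22.9%), against 14.2% of all tested genes. Of these 7 were higher and 1 was lower, against 8.33% and 5.85% of all tested genes. The median log2 change of the members was 0.07, against 0.01 for all tested genes, and 21 members had a positive and 14 a negative value. The 3 genes that rose were Lyz2, S100a8 and S100a9. How the share of members compares with all genes depended on the rule and on the libraries: it was below the background for the adjusted threshold and above it for the study's criteria, and with J7 or K14J29 left out the same 3 members were called while the background fell to 3.16% or 2.48%.

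**Figure D1:**
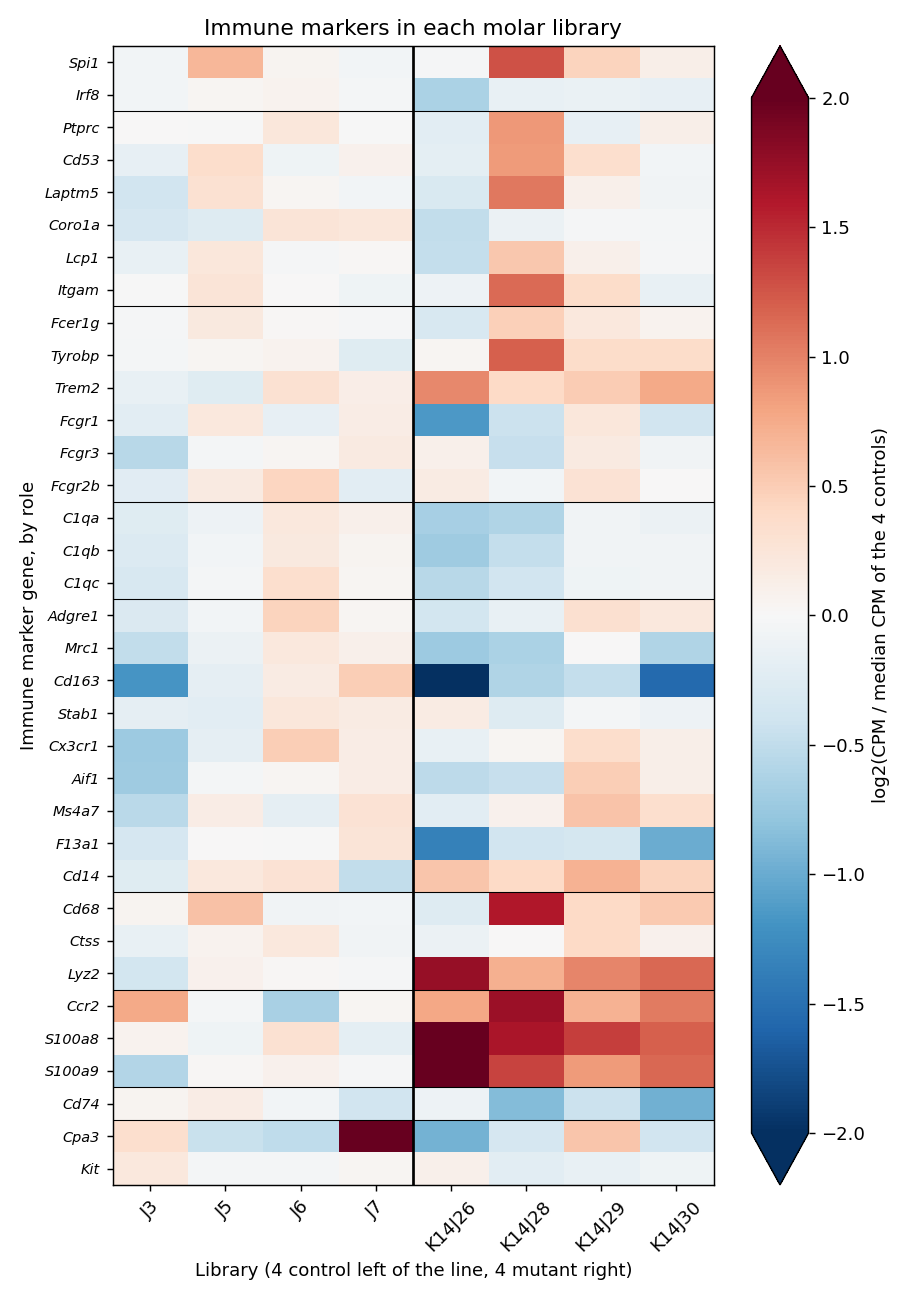
Level of each tested member in each of the 8 libraries, as log2 of its CPM over the median of the 4 control libraries (colour scale, cut at 2 in either direction), with genes grouped by role in rows and libraries in columns. Lyz2, S100a8 and S100a9 are above the control median in all 4 mutant libraries, while the column of K14J28 is high for Spi1, Laptm5, Itgam, Tyrobp and Cd68.

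Because they carry the change, the promoter windows of Lyz2, S100a8 and S100a9 are shown first. Each runs from 250 bases before to 50 bases after the start of the RefSeq transcript on GRCm38.p6 and is written 5′ to 3′ on the strand of the gene. Lyz2 (ENSMUSG00000069516) lies on chromosome 10 from 117277331 to 117282321 on the minus strand, and its window is chr10:117282223-117282522. S100a8 (ENSMUSG00000056054) and S100a9 (ENSMUSG00000056071) are neighbours on chromosome 3, from 90668978 to 90670035 on the plus strand and from 90692632 to 90695721 on the minus strand, with the windows chr3:90668821-90669120 and chr3:90695672-90695971. Capitals mark matches, on either strand, to GAGGAA, the core that PU.1 binds, or to TTGCNNAA, a form of the C/EBP motif.
Lyz2: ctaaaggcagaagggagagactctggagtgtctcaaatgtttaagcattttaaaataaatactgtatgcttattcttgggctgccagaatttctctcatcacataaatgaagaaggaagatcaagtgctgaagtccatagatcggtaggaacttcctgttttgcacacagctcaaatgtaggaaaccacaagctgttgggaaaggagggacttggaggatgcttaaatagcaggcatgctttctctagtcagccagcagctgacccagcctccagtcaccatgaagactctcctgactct
S100a8: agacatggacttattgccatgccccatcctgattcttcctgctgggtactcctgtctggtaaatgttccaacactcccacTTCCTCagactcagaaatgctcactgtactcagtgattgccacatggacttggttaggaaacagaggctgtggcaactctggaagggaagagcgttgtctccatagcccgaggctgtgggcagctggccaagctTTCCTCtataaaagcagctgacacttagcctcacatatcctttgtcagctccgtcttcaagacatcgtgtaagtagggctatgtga
S100a9: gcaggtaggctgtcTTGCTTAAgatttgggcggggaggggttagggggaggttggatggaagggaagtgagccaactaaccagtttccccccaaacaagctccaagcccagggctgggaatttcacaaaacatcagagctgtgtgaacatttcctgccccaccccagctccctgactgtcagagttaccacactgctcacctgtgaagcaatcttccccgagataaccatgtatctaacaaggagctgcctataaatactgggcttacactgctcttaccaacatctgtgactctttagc
The S100a8 window holds GAGGAA on the opposite strand, read here as its reverse complement, starting 170 and 36 bases upstream of the start. The S100a9 window holds 1 match to TTGCNNAA, starting 236 bases upstream, and neither motif is in the Lyz2 window. No printed window holds both motifs. Windows were at hand for 30 of the 37 members, 38 windows in all because some genes have several starts. GAGGAA was in 22 of these 38 windows (57.9%), belonging to 19 genes, and in 28.3% of the 32851 windows of all genes. TTGCNNAA was in 5 of the 38 (13.2%) and in 10.8% of all windows. These shares are descriptions of letters in a window and were not tested.

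Lyz2 encodes lysozyme M, the bacteriolytic enzyme of macrophages and neutrophils. It had 12.6, 17.3, 16.5 and 16 CPM in the control libraries (15.6 ± 2.08, SD, n = 4) and 54.3, 26.6, 32 and 36 CPM in the mutant libraries (37.2 ± 12, SD, n = 4). The lowest mutant library, K14J28, was above the highest control library. The rise was 2.38-fold (log2 change 1.25, SE 0.21, adjusted p = 0.0107). It ranged from 1.01 to 1.38 on the log2 scale when each library was left out in turn, and it was 1.01 without K14J26, the library with the highest level. The close copy Lyz1, which can share reads with Lyz2, had at most 4 counts in any library.

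S100a8 had 2.49, 2.23, 2.9 and 2.06 CPM in the control (2.42 ± 0.368, SD, n = 4) and 10.1, 7.35, 6.13 and 5.43 CPM in the mutant libraries (7.25 ± 2.05, SD, n = 4). Its partner S100a9 had 2.55, 3.87, 4.04 and 3.75 CPM in the control (3.55 ± 0.682, SD, n = 4) and 15.5, 9.74, 6.86 and 8.49 CPM in the mutant libraries (10.2 ± 3.77, SD, n = 4). For both calprotectin genes every mutant library lay above every control library, and K14J26 was again the highest. The log2 change was 1.59 for S100a8 (SE 0.22, adjusted p = 0.0072) and 1.5 for S100a9 (SE 0.26, adjusted p = 0.0119). Without K14J26 the values were 1.39 and 1.23. All 3 genes were called with each of the 8 libraries left out in turn. They were lost when J6 and J7 were left out together, with adjusted p = 0.133 for Lyz2, 0.116 for S100a8 and 0.133 for S100a9 from edgeR's test, at log2 changes of 1.31, 1.61 and 1.64. In that fit 7 of 16881 genes (0.0415%) were called in all.

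Other genes of neutrophils were examined beside them in a list of 12 genes, of which 9 were tested. Of the 9, 3 rose and 0 fell (33.3% called, against 16.1% of all tested genes), with a median log2 change of 1.26 and a positive value for all 9. Ltf, which encodes the iron-binding granule protein lactoferrin, had 0.498, 0.453, 0.778 and 0.81 CPM in the control and 5.67, 1.4, 2.08 and 2.02 CPM in the mutant libraries (log2 change 2.10, SE 0.47, adjusted p = 0.0222). Ngp, neutrophilic granule protein, had 0.719, 1.85, 0.882 and 0.675 CPM against 7.69, 2.79, 2.87 and 3.02 CPM (1.96, SE 0.45, adjusted p = 0.0238). Lcn2, a siderophore-binding lipocalin that epithelia also make, had 0.332, 0.577, 0.519 and 0.405 CPM against 1.63, 1.46, 1.32 and 1.2 CPM (1.6, SE 0.24, adjusted p = 0.00906). In each of these genes the mutant libraries lay above the control libraries and K14J26 was highest. With 1 library left out, Lcn2 kept its call in 8 of 8 fits, but Ltf and Ngp each in 4, and without K14J26 their log2 changes were 1.51 and 1.48 (adjusted p = 0.0107 and 0.0177). Elane, neutrophil elastase, was low, with 1 to 8 counts in each library. Mpo, myeloperoxidase, had a log2 change of 0.63 (adjusted p = 0.251) with overlapping groups. The summed level of the list was 7.36 to 11.9 CPM in the control libraries and 35.1, 17, 14.8 and 16.2 CPM in K14J26, K14J28, K14J29 and K14J30. A list of 6 dental epithelial genes moved with it, at 4654 to 5368 CPM in the control and 8078, 5483, 6921 and 6216 CPM in the mutant libraries, as did the enamel genes. The part of neutrophils, and that of the epithelium, in the rise of Lyz2, S100a8 and S100a9 was not tested.

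**Figure D2:**
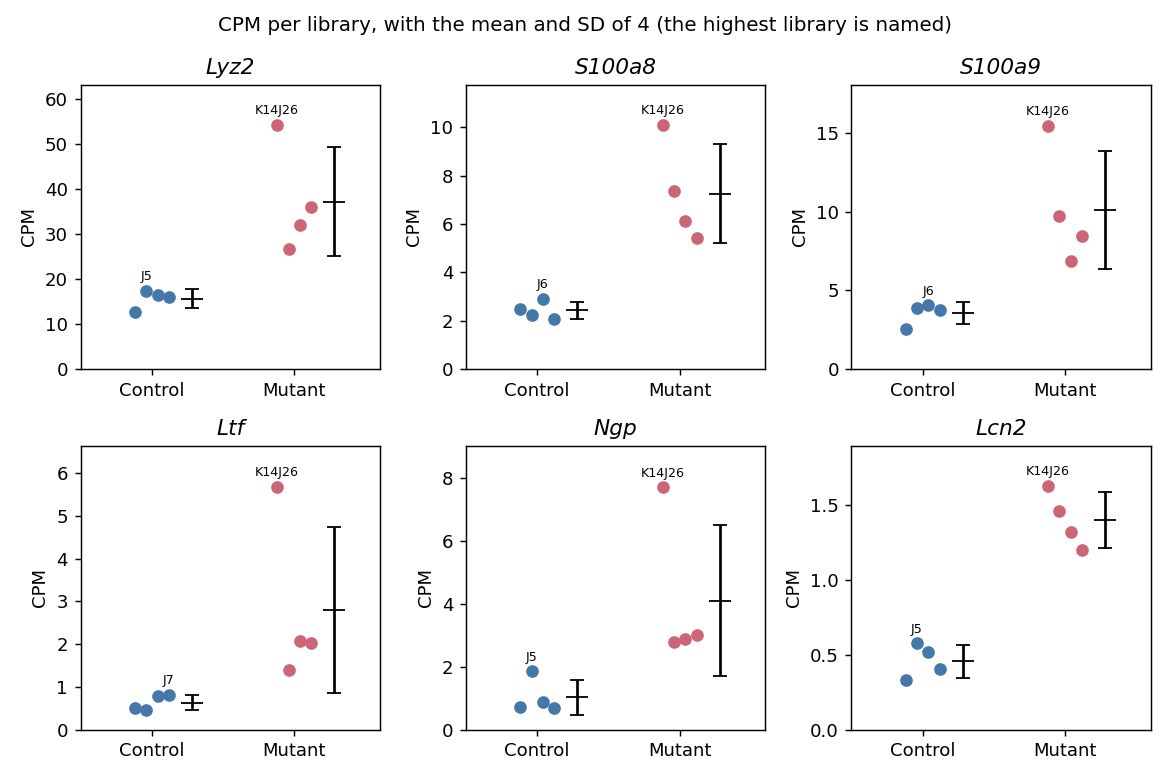
CPM of Lyz2, S100a8, S100a9, Ltf, Ngp and Lcn2 in each control and mutant library, a point per library, with the mean and SD of the 4 libraries of a group (bars). For each of the 6 genes all mutant points lie above all control points, with K14J26 the highest.

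Ccr2 encodes the chemokine receptor that brings monocytes out of the circulation. It had 1.66, 0.948, 0.622 and 1.01 CPM in the control and 1.68, 3.19, 1.59 and 2.02 CPM in the mutant libraries. The groups overlapped through J3 and K14J29, and the log2 change of 1.01 (SE 0.33) did not pass the test (adjusted p = 0.0654 from edgeR, 0.0298 from DESeq2).

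The pair of lineage transcription factors did not pass the test. Spi1 (PU.1) had 3.93, 6.47, 4.25 and 3.92 CPM in the control and 4.04, 9.91, 5.54 and 4.42 CPM in the mutant libraries, with the highest value in K14J28. Its log2 change was 0.37 (SE 0.30, adjusted p = 0.41), and 0.01 without K14J28. Irf8, which directs monocyte and dendritic cell fate, had 3.1, 3.3, 3.37 and 3.11 CPM in the control and 2.07, 2.89, 2.91 and 2.87 CPM in the mutant libraries. All 4 mutant libraries lay below the controls by a small margin, and the log2 change of -0.26 (SE 0.16) did not pass the test (adjusted p = 0.275).

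None of the 6 pan-leukocyte genes passed the test (smallest adjusted p = 0.37). Ptprc encodes the leukocyte common antigen CD45 and serves as the general count of blood-derived cells. It had 5.7, 5.69, 6.69 and 5.64 CPM in the control and 4.9, 10.4, 5.09 and 6.2 CPM in the mutant libraries, so that the control values lay close together and K14J28 stood above the rest. The log2 change was 0.17 (SE 0.24), and -0.14 without K14J28. The tetraspanin gene Cd53 had a log2 change of 0.24, the lysosomal membrane gene Laptm5 0.29 and the integrin alpha M gene Itgam 0.37, with the highest value of each in K14J28. Without K14J28 they were -0.01, -0.09 and 0.01. The actin-binding genes Coro1a and Lcp1 had log2 changes of -0.15 and 0.06, with overlapping groups.

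Among the 6 Fc receptor and ITAM adaptor genes, Tyrobp and its partner Trem2 had the largest values. Tyrobp encodes DAP12, the adaptor through which Trem2 signals. It had 10.5, 11, 11.3 and 9.05 CPM in the control and 11.1, 24.7, 13.8 and 13.8 CPM in the mutant libraries, with K14J26 within the control range. Its log2 change was 0.61 (SE 0.23, adjusted p = 0.0943), 0.30 without K14J28 and 0.74 without K14J26, where it passed the test (adjusted p = 0.0342). Trem2, a lipid-sensing receptor of macrophages and osteoclasts, had 1.88, 1.77, 2.59 and 2.3 CPM in the control and 4.08, 2.76, 2.98 and 3.53 CPM in the mutant libraries. The groups did not overlap, and K14J28 was the lowest of the mutants rather than the highest. The log2 change of 0.64 (SE 0.19) lay just outside the threshold (adjusted p = 0.0524 from edgeR). It was inside it with DESeq2 (adjusted p = 0.0285) and, at 0.71, without K14J28 (adjusted p = 0.0322, edgeR).

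The Fc receptors themselves differed by less than their errors or little more. Fcgr1, the high-affinity IgG receptor, had 1.66, 2.23, 1.71 and 2.13 CPM in the control and 0.865, 1.43, 2.25 and 1.47 CPM in the mutant libraries (log2 change -0.35, SE 0.28), with -0.17 without K14J26 and -0.61 without K14J29. Fcgr3 and the inhibitory receptor gene Fcgr2b had log2 changes of 0.03 and 0.04 (SE 0.19 and 0.20), and both turned sign with upper-quartile or library size scaling. The shared gamma chain gene Fcer1g had 0.10 (SE 0.16). Fcgr3 and Fcgr2b are similar in sequence and lie on chromosome 1, so reads could be split between them and their relatives.

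C1qa, C1qb and C1qc encode the chains of C1q, which tags debris for uptake and in most tissues is made by macrophages. They lie side by side on chromosome 4. C1qa had 10.2, 11.2, 14 and 12.9 CPM in the control and 7.59, 7.95, 11.5 and 11.1 CPM in the mutant libraries. C1qb had 14.3, 16.6, 19.7 and 17.8 against 10.5, 12.4, 16.3 and 16.4 CPM, and C1qc had 11.3, 13.7, 17.8 and 14.6 against 9.61, 10.9, 13.3 and 13.5 CPM. The order of the libraries was much alike for the 3 genes, with K14J26 lowest and J6 highest, and the groups overlapped for each. The log2 changes were -0.34, -0.30 and -0.28 (SE 0.17, 0.16 and 0.16), and none passed the test (adjusted p = 0.177, 0.219 and 0.244). Without K14J26 the log2 changes were -0.25, -0.18 and -0.19, without J6 they were -0.27, -0.23 and -0.16, and without J6 and J7 together they were -0.17, -0.16 and -0.08. K14J28 was not high for these genes, at 0.709, 0.758 and 0.811 times the median of the other 7 libraries.

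Of the 9 tested macrophage receptors and tissue macrophage genes, 0 passed the adjusted threshold, with 1 higher (Cd14) and 1 lower (F13a1) at an unadjusted p of at most 0.05, where all tested genes gave 19.1% and 15.7%. F13a1 encodes the A subunit of coagulation factor XIII and is typical of tissue-resident macrophages. It had 11.7, 14.9, 14.7 and 17.7 CPM in the control (14.8 ± 2.45, SD, n = 4) and 5.81, 11.4, 11.6 and 7.48 CPM in the mutant libraries (9.09 ± 2.91, SD, n = 4). The groups did not overlap, though K14J29 was close to J3. The log2 change of -0.70 (SE 0.23) missed the threshold with edgeR (adjusted p = 0.063) and passed it with DESeq2 (adjusted p = 0.0175). Without K14J28 it was -0.83 and passed it with edgeR (adjusted p = 0.0336).

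Scavenger receptors of resident macrophages had lower mutant means with overlapping groups. Mrc1, the mannose receptor CD206, had 15.1, 19.5, 24.5 and 22.8 CPM in the control and 12.8, 13.7, 21.2 and 14 CPM in the mutant libraries. K14J29 was within the control range and the other mutants were below it (log2 change -0.40, SE 0.19, adjusted p = 0.17). Without K14J29 the value was -0.60 (adjusted p = 0.0745), and without J6 and J7 together -0.17. Cd163, the haemoglobin scavenger receptor, had 10 to 52 counts in the control and 5 to 26 counts in the mutant libraries, and its log2 change of -0.99 carried the second-largest error of the members (SE 0.45, adjusted p = 0.147), and it was -0.75 without K14J26 and -0.47 without J6 and J7 together. Stab1, stabilin-1, had 35.1, 34.1, 46.2 and 44.2 CPM against 44.2, 33.1, 38.4 and 36.9 CPM (-0.07, SE 0.12). Stab1 is also expressed in endothelium, and 112 bases (1.09%) of its exons overlap Nt5dc2 on the opposite strand. In a list of 12 endothelial and lymphatic endothelial genes, 11 had a negative and 1 a positive log2 change (median -0.16). By edgeR 1 of them fell, against 6.61% of all tested genes. It was Tie1 (-0.35, SE 0.09, adjusted p = 0.0291), called in 2 of 8 fits with 1 library left out. The part of endothelium in the levels of these receptors was not tested.

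The remaining macrophage genes showed differences smaller than about 1 SE, apart from Cd14. Adgre1, which encodes the macrophage antigen F4/80, had 4.37, 5.15, 7.26 and 5.5 CPM in the control and 4.13, 4.79, 6.65 and 6.17 CPM in the mutant libraries (log2 change -0.03, SE 0.20). The fractalkine receptor gene Cx3cr1 had a log2 change of 0.10, the IBA1 gene Aif1 0.07 and Ms4a7 0.25 (SE 0.23, 0.28 and 0.23). Cd14, the lipopolysaccharide co-receptor, had 0.719, 0.989, 1.04 and 0.608 CPM in the control and 1.25, 1.13, 1.39 and 1.16 CPM in the mutant libraries. Its groups did not overlap, but at 13 to 40 counts per library the log2 change of 0.56 (SE 0.23) did not pass the test (adjusted p = 0.123).

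Over all roles, the groups did not overlap for 7 of the 35 members (20%), against 24.2% of all tested genes. The mutants were higher for Trem2, Cd14, Lyz2, S100a8 and S100a9 and lower for Irf8 and F13a1. For all tested genes the shares were 12.6% higher and 11.6% lower.

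**Figure D3:**
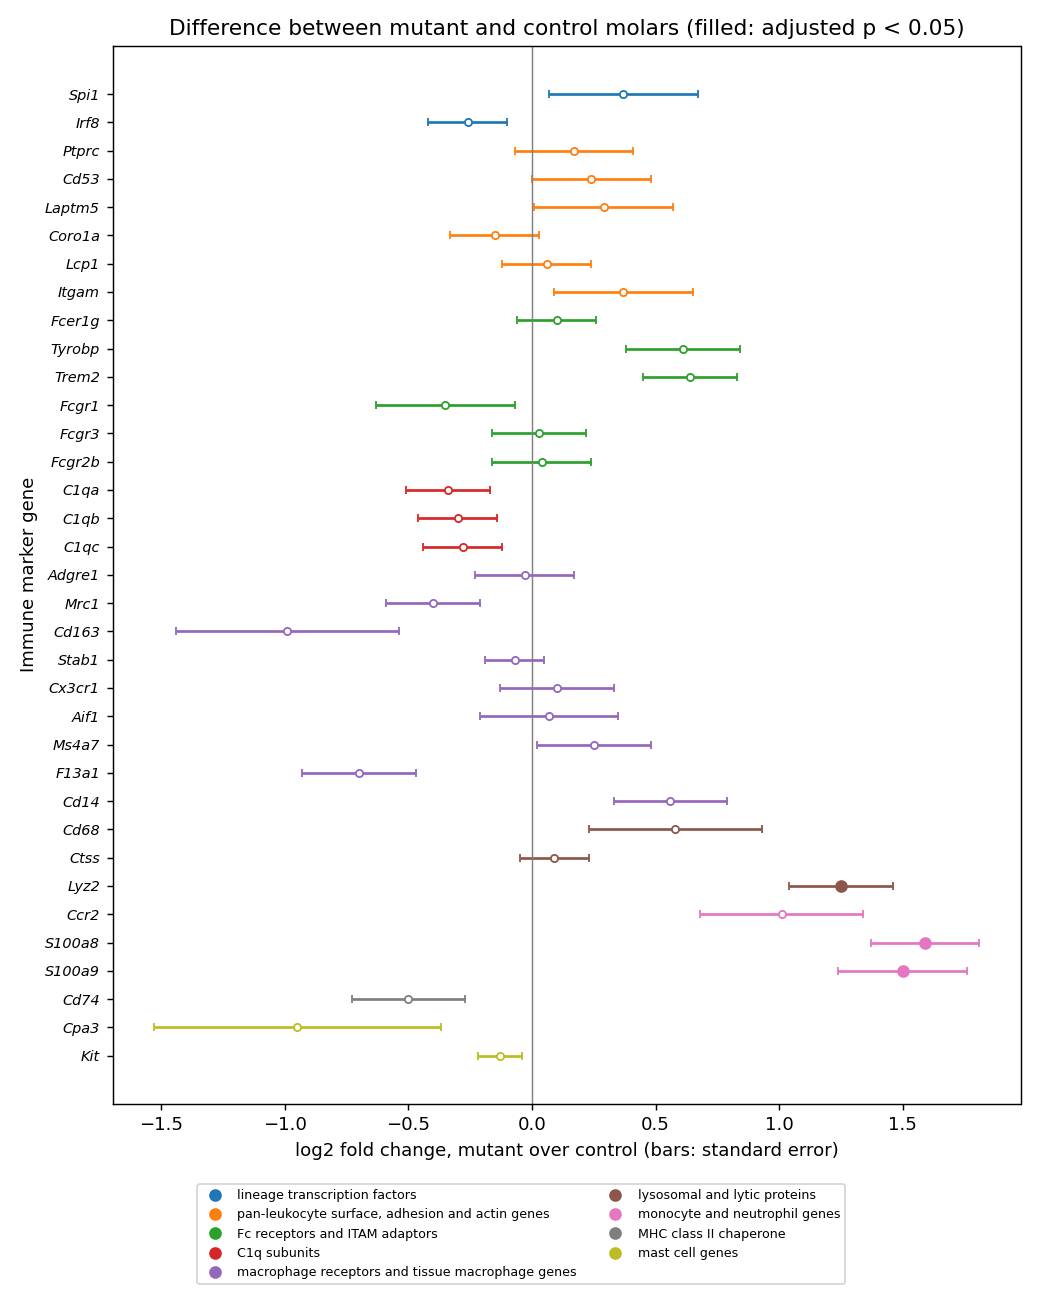
Log2 change (mutant over control) of the 35 tested members with 1 SE on each side, coloured by role, filled where the adjusted p is under 0.05. Only Lyz2, S100a8 and S100a9 are filled, while C1q subunits, Mrc1, Cd163 and F13a1 lie to the left of 0.

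Cd68 and Ctss are the other lysosomal genes of the list. Cd68, a membrane protein of macrophage and osteoclast lysosomes, had 14.4, 20.9, 13.3 and 13.4 CPM in the control and 11.6, 42.3, 18.4 and 20 CPM in the mutant libraries. K14J28 was 2.94 times the median of the other 7 libraries, the largest such ratio of the tested members. The log2 change was 0.58 (SE 0.35, adjusted p = 0.269), and 0.10 without K14J28. Ctss, the protease cathepsin S of antigen-presenting cells, had 9.63, 11.2, 12.3 and 10.1 CPM against 9.8, 10.7, 14.1 and 11.3 CPM (0.09, SE 0.14), with no such peak in K14J28.

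K14J28 was the highest of the 8 libraries for 10 of the 35 tested members, and for 13.7% of all tested genes. Those 10 were Spi1, Ptprc, Cd53, Laptm5, Lcp1, Itgam, Fcer1g, Tyrobp, Cd68 and Ccr2. J6 was highest for another 10 members, against 6.4% of all tested genes, namely Irf8, Coro1a, Fcgr2b, C1qa, C1qb, C1qc, Adgre1, Mrc1, Stab1 and Cx3cr1. K14J26 was lowest for 16 members and highest for 4, where it was lowest for 27.2% and highest for 27.8% of all tested genes. In K14J28, at least 1.5 times the median of the other 7 libraries was reached by 11 members, and by 6.16% of all tested genes. Of these 11, Lyz2, S100a8 and S100a9 were higher still in K14J26 and did not peak in K14J28, while the other 8 did. Osteoclast genes moved with these 8: all 11 genes of an osteoclast list were at least 1.5 times that median in K14J28, from 1.7 to 5.49 times. Acp5, tartrate-resistant acid phosphatase, had 97.5, 158, 65.2 and 70.5 CPM in the control and 69.1, 454, 126 and 129 CPM in the mutant libraries. Ctsk, the collagen-degrading cathepsin K, had 155, 252, 114 and 120 CPM against 105, 806, 205 and 195 CPM. J5, the control library with the highest Acp5 and Ctsk, was also the control library with the highest Spi1, Cd53, Laptm5, Itgam and Cd68. Among the controls, Ptprc and Tyrobp were instead highest in J6, and Ccr2 in J3.

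The summed level of the osteoclast list was 350 to 769 CPM in the control libraries and 356, 1991, 691 and 623 CPM in K14J26, K14J28, K14J29 and K14J30. None of its 11 genes passed the test (smallest adjusted p = 0.0795, for Nfatc1, the transcription factor of osteoclast differentiation). The log2 change of Nfatc1 was 0.56 with all libraries, 0.31 without K14J28 (adjusted p = 0.0773) and 0.67 without K14J26, where it passed the test (adjusted p = 0.032). The bone matrix gene Ibsp was also highest in K14J28, at 447 CPM against 141 to 189 CPM in the other 7 libraries. It was the only 1 of 6 tested bone genes to be highest there. The globin gene Hba-a1 was highest in K14J28 too, at 411 CPM against 170 to 327 CPM, as were 5 of 8 tested erythroid genes in all. Csf1r, the receptor for CSF1 that macrophages and osteoclasts share, had 28.6, 40.8, 33.3 and 30.4 CPM in the control and 26.6, 92.7, 44.9 and 39.4 CPM in the mutant libraries (log2 change 0.62, SE 0.33, adjusted p = 0.214). Without K14J28 its value was 0.15. The part of osteoclasts in the levels of Spi1, Tyrobp and Cd68 was not tested.

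**Figure D4:**
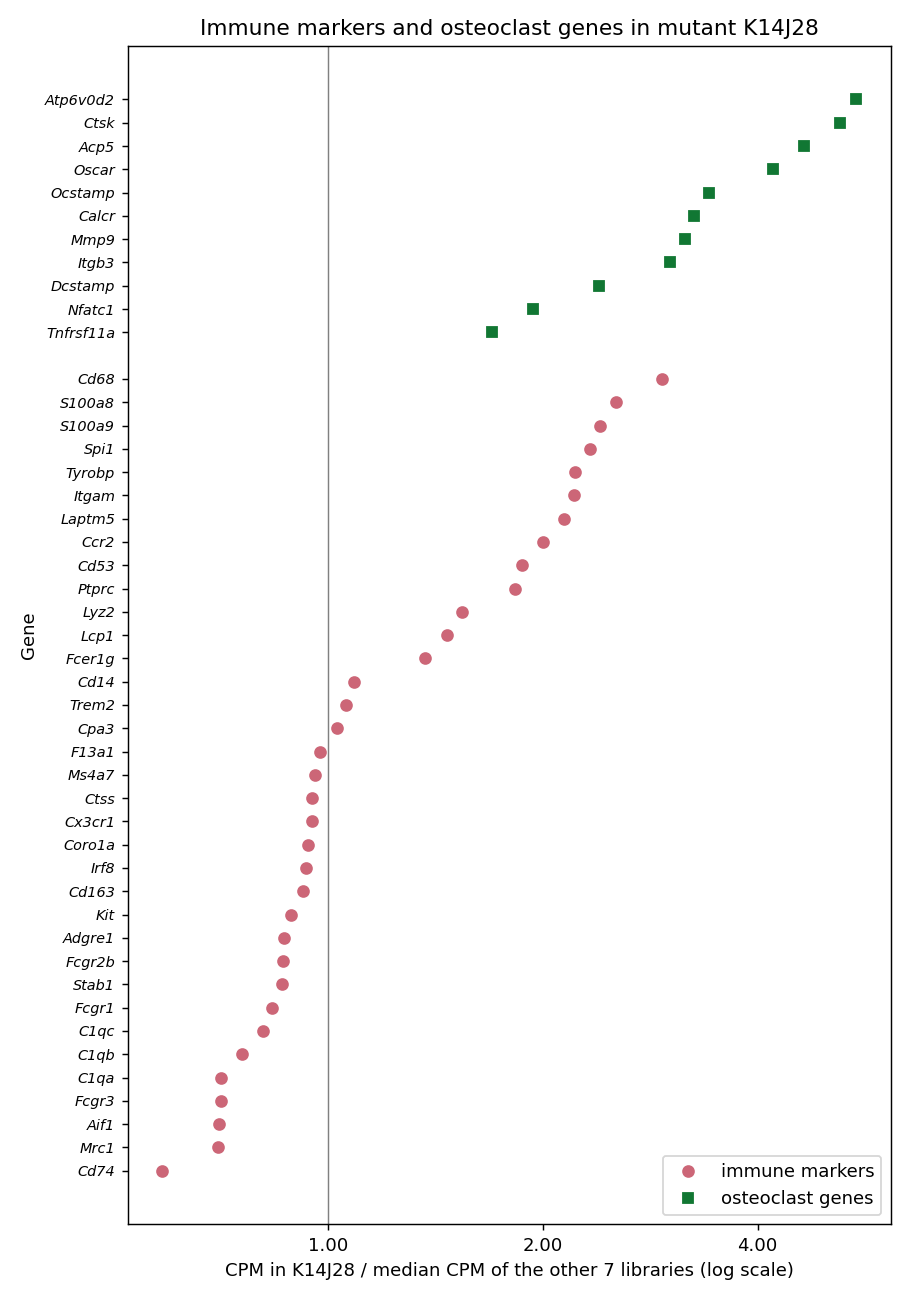
Level in K14J28 divided by the median of the other 7 libraries for the tested members and for the osteoclast list, on a log axis, a point per gene. All 11 osteoclast genes lie at or above 1.7, Cd68 at 2.94 is the highest member, and C1qa, Mrc1 and Cd74 lie below 1.

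Cd74 encodes the invariant chain that guides MHC class II molecules to the compartment where they are loaded. It had 3.15, 3.34, 2.9 and 2.33 CPM in the control and 2.83, 1.66, 2.25 and 1.55 CPM in the mutant libraries, with overlapping groups (log2 change -0.50, SE 0.23, adjusted p = 0.15). In a list of 12 MHC class II and dendritic cell genes, 6 were tested and 2 rose, against 9.52% of all tested genes. H2-Eb1, an MHC class II beta chain, had a log2 change of 0.87 (SE 0.26, adjusted p = 0.0481), at 0.726 to 1.11 CPM in the control and 1.14 to 2.13 CPM in the mutant libraries. Itgax, the CD11c gene, had 4 to 10 counts in the control and 9 to 23 counts in the mutant libraries (1.08, SE 0.30, adjusted p = 0.0409). Both calls were lost in most fits with 1 library left out: H2-Eb1 kept its call in 1 and Itgax in 2 of 8.

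Cpa3 and Kit are known from mast cells, but only Cpa3, a granule carboxypeptidase, is largely restricted to them. Cpa3 had 4.1, 2.39, 2.28 and 13.3 CPM in the control and 1.68, 2.56, 4.78 and 2.48 CPM in the mutant libraries. J7 stood above every other library. The log2 change was -0.95 (SE 0.58, adjusted p = 0.271), and -0.02 without J7. The mast cell proteases Cma1, Tpsb2 and Mcpt4 did the same. Cma1 had 2.93, 2.06, 1.56 and 11.5 CPM in the control and 1.63, 1.4, 3.95 and 1.75 CPM in the mutant libraries. Tpsb2 and Mcpt4 had 13.9 and 7.12 CPM in J7 against at most 3.84 and 2.18 CPM elsewhere. Over 9 mast cell genes the summed level was 38.3 CPM in J7 and 8.12 to 13.3 CPM in the other 7 libraries. Of the 6 tested, 0 passed (at an unadjusted p of at most 0.05, 1 was lower, Gata2, with a log2 change of -0.68 and adjusted p = 0.068 from edgeR). Fcer1a, as given above, was near 0, and the difference between the groups in Cpa3 thus rested on 1 control library.

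Kit encodes the receptor for stem cell factor, which melanocytes and other cells use as well. It had 110, 92, 92 and 97.1 CPM in the control and 101, 81.7, 85.4 and 89 CPM in the mutant libraries (log2 change -0.13, SE 0.09, adjusted p = 0.314). Its level per kilobase of exon (10.5 CPM per kilobase over all libraries) was above that of Cpa3 (2.77), and its value in J7 was within the range of the other controls, unlike that of the proteases. Of the melanocyte markers, Tyrp1 had 0 counts in all libraries and Tyr at most 1, while Dct had 31 to 69, Pmel 16 to 41 and Mitf, which other cells use too, 425 to 873 counts per library.

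**Figure D5:**
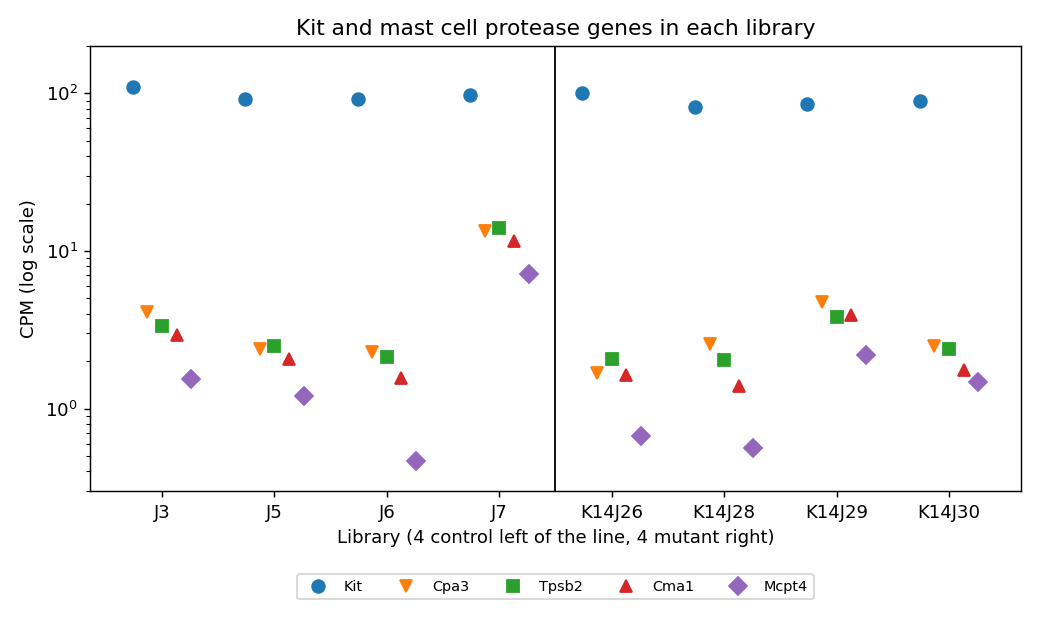
CPM on a log axis of Kit, Cpa3, Tpsb2, Cma1 and Mcpt4 in each of the 8 libraries, with a small sideways shift for each gene. The 4 mast cell granule genes peak together in J7, while Kit stays between 81.7 and 110 CPM.

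Further immune genes were taken from lists of 134 symbols, of which 106 were tested. Among these 14 rose and 2 fell (15.1%, against 16.1% of all tested genes), with a median log2 change of 0.25. Of 23 tested further macrophage and microglia genes, 5 rose and 1 fell (26.1% called, against 9.52% of all tested genes that rose and 6.61% that fell). Mpeg1, the pore-forming protein perforin-2 of macrophages, had 7.58, 10.3, 9.49 and 8 CPM in the control and 16.4, 10.9, 15.8 and 14.6 CPM in the mutant libraries (log2 change 0.70, SE 0.15, adjusted p = 0.0212). Gpnmb, a glycoprotein of macrophages, osteoclasts and pigment cells, had 5.37 to 10.8 CPM in the control and 14.9 to 19.7 CPM in the mutant libraries (1.16, SE 0.20, adjusted p = 0.0111). The groups did not overlap for either gene. With 1 library left out, Gpnmb kept its call in 8 and Mpeg1 in 5 of 8 fits.

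The transcription factor genes Maf and Sall1, which macrophages or microglia use but other tissues express too, rose by 0.76 and 0.71 on the log2 scale (adjusted p = 0.0162 and 0.0167). Their control means of 222 and 26.9 CPM were far above the 5.93 CPM of Ptprc. Cd83, an activation marker of dendritic and B cells, fell, with 3.53 to 4.66 CPM in the control and 2.18 to 2.95 CPM in the mutant libraries (log2 change -0.79, SE 0.16, adjusted p = 0.0178). With each library left out in turn, Maf kept its call in 6, Sall1 in 4 and Cd83 in 4 of 8 fits.

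Of 24 tested genes of leukocyte signalling and the phagocyte NADPH oxidase, 4 rose and 0 fell (16.7% called, against 16.1% of all tested genes), with a median of 0.31. At an unadjusted p of at most 0.05, 8 were higher and 0 were lower, against 19.1% and 15.7% of all tested genes. Cybb, the catalytic subunit of the oxidase, had 1.33, 1.73, 2.18 and 1.11 CPM in the control and 2.79, 2.66, 3.26 and 2.64 CPM in the mutant libraries (log2 change 0.84, SE 0.22, adjusted p = 0.0358). The phosphatase gene Ptpn6 (SHP-1) rose by 0.46, the exchange factor gene Vav1 by 1.03 and the signalling gene Arhgdib by 0.57 (adjusted p = 0.0173, 0.033 and 0.0393). These calls were lost in several of the 8 fits that leave out 1 library: Cybb kept its call in 3, Ptpn6 in 4, Vav1 in 3 and Arhgdib in 2. The control means of Ptpn6 and Arhgdib, 16.5 and 36.1 CPM, were above the 5.93 CPM of Ptprc. Those of Vav1 and Cybb were 5.91 and 1.59 CPM. Itgb2, the integrin beta partner of Itgam, had 11.4 CPM in K14J28 against 2.27 to 5.33 CPM elsewhere and did not pass the test (1.08, SE 0.37, adjusted p = 0.076), with 0.62 without K14J28, and 1.26 and a call without K14J26 (adjusted p = 0.0341).

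The growth factors that act through Csf1r, Csf1 and Il34, did not pass the main test. Csf1 had 22.2, 24.6, 21.7 and 27.9 CPM in the control and 15.7, 20.9, 18.6 and 19.1 CPM in the mutant libraries, without overlap (log2 change -0.38, SE 0.11, adjusted p = 0.0523). Csf1 passed in 4 of 17 alternatives, among them DESeq2 with all libraries (-0.38, adjusted p = 0.0201) and edgeR without K14J28 (-0.44, adjusted p = 0.0274). Il34 had a log2 change of -0.94 at under 1 CPM in every library (SE 0.41, adjusted p = 0.137), and it passed without K14J26 (-1.37, adjusted p = 0.0323). Among 4 tested T and NK cell genes, the kinase gene Lck fell, from 3.65, 3.34, 2.75 and 3.17 CPM to 1.3, 1.8, 1.87 and 1.86 CPM (-0.91, SE 0.18, adjusted p = 0.0162), in a tissue where the CD3 genes were near 0, and it kept its call in 5 of 8 fits with 1 library left out. By edgeR with all libraries, 0 of 6 tested B cell genes, 0 of 10 chemokine genes and 0 of 11 complement genes other than C1q passed the adjusted threshold. The share of all tested genes was 16.1%. At an unadjusted p of at most 0.05, 2 B cell genes were higher, 0 chemokine genes differed, and 2 complement genes were higher and 1 was lower, where all tested genes gave 34.9% in either direction. Without K14J26, edgeR called Ccr1 (log2 change 1.24, adjusted p = 0.0182) and C3ar1 (0.67, adjusted p = 0.0159) higher. It called Serping1 lower in that fit (-0.55, adjusted p = 0.0142).

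Some genes outside these lists followed the macrophage genes from library to library. The mean log2 CPM of the 18 tested Fc receptor, C1q and macrophage receptor members was 2.17, 2.52, 2.70 and 2.60 in the control and 2.16, 2.41, 2.70 and 2.45 in the mutant libraries, so that J3 and K14J26 were lowest and the groups overlapped. Among 14556 other genes with a mean of at least 1 CPM, Igsf1 (Pearson's r = 0.96 over the 8 libraries), 5330417C22Rik (0.95), Hrc (0.95), Stk40 (0.92), Ppp1r3d (0.89), Fcrls (0.89), Rab20 (0.88) and Rsph9 (0.87) were most like this mean. Fcrls, an Fc receptor-like gene of microglia and macrophages, had 7.86, 9.85, 10.7 and 12.4 CPM in the control and 6.63, 8.18, 14.1 and 10.7 CPM in the mutant libraries. These are the closest of many genes over only 8 libraries that share their scaling and groups, and they are given as a description without a test.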

How the data were processed

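Lower first molars of 4 control and 4 mutant embryos, 1 library per embryo, were profiled by RNA-seq with a poly-A kit that does not mark strand. After trimming and STAR alignment to GRCm38, the authors deposited raw counts per Ensembl gene. Counting is attributed to GenomicRanges in the methods and to featureCounts in the submitters' processing notes, and the treatment of reads with several matches is not given in the sources used here.

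Of 43629 identifiers, 42548 matched GENCODE M21. A gene was tested (17129 were) if 2 or more samples of a group had 10 or more counts. TMM scaling and the quasi-likelihood test came from edgeR 4.0.16 (R 4.3.3), with no covariate, Benjamini-Hochberg adjustment across tested genes and a threshold of 0.05. Alternatives were other scalings and filters, DESeq2 1.42.0, limma-voom (limma 3.58.1), and leaving out the 20 most abundant genes or libraries. The test was checked on simulated data. Mean log2 CPM used a prior count of 2.

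The members and lists were chosen with earlier results of these data known. All members could be named, and of each other list the first 3 genes and the up to 4 with the smallest unadjusted p. Of the genes called in these lists, 1 is counted but its values are not reported here. Precision is limited by 4 embryos per group and, for the lowest genes, by depth.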

Additional observations from a re-analysis of the deposited data

Results flagged for a closer look

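For each of the 35 tested members, the levels of the 4 libraries of each group were searched for 1 library far from the other 3. Of the 70 sets examined, 6 held such a library, and chance alone gives about 1 in 20. Among the controls, J5 had 6.47 CPM of Spi1 against 3.92 to 4.25 CPM in the others, and 20.9 CPM of Cd68 against 13.3 to 14.4 CPM. J6 had 6.69 CPM of Ptprc against 5.64 to 5.7 CPM, and J7 had 13.3 CPM of Cpa3 against 2.28 to 4.1 CPM. Among the mutants, K14J26 had 2.07 CPM of Irf8 against 2.87 to 2.91 CPM, and K14J29 had 21.2 CPM of Mrc1 against 12.8 to 14 CPM.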

How the results depend on the processing

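Lyz2, S100a8 and S100a9 were called in 16 of 17 alternatives, the exception being the fit without J6 and J7. The count of 3 members called became 7 with DESeq2 (6 higher, 1 lower, 20% of members, against 23.1% of all genes there) and 0 without J6 and J7. It ran from 3 to 5 with 1 library left out (lower calls from 0 to 1). The 5 were called without K14J28. For these counts and those below with 1 library left out, the background moved too. The share of all genes called ran from 2.48% without K14J29 to 25.5% without K14J28. The 8 members past the study's criteria became 5 without J6 and J7 and 4 when the log2 ratio had to be 1 or more in size. The share of all genes was not computed for these settings of the criteria. The 16 calls among the other immune lists ran from 3 to 21 with 1 library left out and were 0 without J6 and J7. The calls among the lists of other cell types, 16 in all, became 29 with DESeq2 and 0 without J6 and J7. With 1 library left out they ran from 0 to 24. Without the 20 most abundant genes they were 10. That fit removed genes of these lists, among them Amelx, Ambn, Enam, Dspp, Col1a1 and Col1a2, which could then not be called. Over 67 genes and their alternatives, 1134 fold changes were computed, of which 987 kept direction and call, 92 lost the call, 19 gained it and 36 changed sign; the cause was not tested. No called gene changed sign. With library size scaling alone, which moved the median of all genes to -0.09, the value was -0.02 for Lcp1, -0.08 for Fcgr3, -0.06 for Fcgr2b, -0.03 for Aif1, -0.01 for Ctss and -0.06 for H2-Aa. With upper-quartile scaling it was -0.02 for Fcgr3 and -0.01 for Fcgr2b, and with limma-voom -0.00016 for Fcgr3. Without J6 and J7 it was 0.14 for Coro1a, 0.19 for Adgre1 and 0.13 for Stab1. With 1 library left out, the values ran from -0.14 to 0.29 for Ptprc, from -0.01 to 0.36 for Cd53, from -0.09 to 0.45 for Laptm5, from -0.14 to 0.20 for Lcp1, from -0.04 to 0.22 for Fcer1g, from -0.10 to 0.14 for Fcgr3, from -0.06 to 0.17 for Fcgr2b, from -0.14 to 0.11 for Adgre1, from -0.15 to 0.01 for Stab1, from -0.08 to 0.30 for Cx3cr1, from -0.16 to 0.19 for Aif1, from -0.03 to 0.16 for Ctss, from -0.08 to 0.15 for H2-Aa, from -0.42 to 0.06 for H2-Ab1, from -1.52 to 0.0014 for Cma1 and from -1.54 to 0.20 for Mcpt4. No paired analysis was possible because the sample labels do not say which control and mutant embryos shared a litter. Depth limits Itgb2l, Cd163 and Cd14 most.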
